A study of Mus musculus with 4 samples.

Results

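GABA and glutamate synthesis and transport genes are 8 genes that make, pack, clear or degrade the main inhibitory and excitatory transmitters of the brain: Gad1, Gad2, Slc32a1, Slc6a11, Slc6a13, Abat, Slc17a6 and Slc17a7. They were chosen by their symbols, and each matched 1 of the 32285 genes counted, so that 8 of 8 members were found. The cells came from the forebrain of C57BL/6 mice at postnatal day 5 and were sorted for the red fluorescent protein tdTomato. Control mice were NestinCreERT2/tdTomato/Chd8+/+ and mutant mice carried 1 floxed copy of Chd8, a chromatin remodeler, with the same Cre and reporter. In both groups tamoxifen was given to the dams in midgestation and the pups were delivered by cesarean section and fostered. The Nestin promoter drives the Cre in neural stem and progenitor cells, so that the sort aimed at cells whose ancestors carried active Cre. The cells kept after filtering also held 571 named as pericytes, 269 as microglia, 166 as endothelial cells and 101 as fibroblasts. Whether Cre had been active and Chd8 recombined in these types was not tested. There were 2 control and 2 mutant libraries, each pooled from 3 mice, and single mice could not be told apart within a library.

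GABA is made from glutamate by 2 glutamate decarboxylases, GAD67 (Gad1) and GAD65 (Gad2), and is packed into synaptic vesicles by the vesicular transporter VGAT (Slc32a1). After release it is taken up by plasma membrane carriers, among them GAT3 (Slc6a11) of astrocytes and GAT2 (Slc6a13), which is known from the meninges, and it is broken down by GABA transaminase (Abat). Glutamate is packed into vesicles by VGLUT2 (Slc17a6) and VGLUT1 (Slc17a7), the second of which rises in the cortex as neurons mature after birth.

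In the GENCODE vM21 annotation of GRCm38, 3 members lie on chromosome 2: Gad1 (ENSMUSG00000070880, chr2:70553072-70602014), Gad2 (ENSMUSG00000026787, chr2:22622205-22693874) and Slc32a1 (ENSMUSG00000037771, chr2:158610767-158615748). Both GABA carriers lie on chromosome 6, Slc6a11 (ENSMUSG00000030307) at chr6:114131241-114249952 and Slc6a13 (ENSMUSG00000030108) at chr6:121300227-121337733. Slc6a13 lies 5342 bases from Slc6a12, which encodes a carrier of betaine and GABA. Abat (ENSMUSG00000057880) is at chr16:8513429-8621568. Slc17a6 (ENSMUSG00000030500) and Slc17a7 (ENSMUSG00000070570) are at chr7:51622006-51671119 and chr7:45163949-45176142. All 8 are on the plus strand. Gad1 overlaps the antisense gene Gad1os over 10286 bases. Whether strand was used in counting is not given in the sources used here, so that reads of this pair cannot be assigned with certainty.

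The 250 bases before the start of transcription are shown for the genes whose patterns across cell types are described below, 3 that shared a pattern and 2 carriers of the same family that did not. They were taken from the RefSeq starts (GRCm38.p6), 5′ to 3′ on the plus strand, and distances below are to these starts. The Gad1 window thus lies inside the GENCODE span of its gene, and the Gad2 and Slc6a13 windows end inside theirs. Capitals mark matches of 6 motifs searched on both strands, with overlaps allowed. They were the homeodomain motif TAATTA and its relative CAATTA, the E boxes CAGATG (as in targets of neural helix-loop-helix factors) and its relative CAGCTG, the TATA box with the letters TATAAA and the GC box with the letters GGGCGG. For Gad1 the window is chr2:70561879-70562128, for Gad2 chr2:22622077-22622326 and for Slc32a1 chr2:158610508-158610757, and for Slc6a11 it is chr6:114130991-114131240 and for the first of 3 listed starts of Slc6a13 chr6:121300038-121300287.
Gad1: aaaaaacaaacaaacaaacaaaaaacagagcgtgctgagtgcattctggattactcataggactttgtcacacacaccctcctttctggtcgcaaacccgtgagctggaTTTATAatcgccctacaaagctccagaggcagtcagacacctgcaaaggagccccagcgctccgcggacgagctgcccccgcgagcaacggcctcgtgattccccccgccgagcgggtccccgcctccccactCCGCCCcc
Gad2: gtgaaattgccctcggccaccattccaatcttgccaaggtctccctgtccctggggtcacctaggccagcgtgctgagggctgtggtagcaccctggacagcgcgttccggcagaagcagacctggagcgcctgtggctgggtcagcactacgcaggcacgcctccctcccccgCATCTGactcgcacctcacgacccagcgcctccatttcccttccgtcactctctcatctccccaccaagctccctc
Slc32a1: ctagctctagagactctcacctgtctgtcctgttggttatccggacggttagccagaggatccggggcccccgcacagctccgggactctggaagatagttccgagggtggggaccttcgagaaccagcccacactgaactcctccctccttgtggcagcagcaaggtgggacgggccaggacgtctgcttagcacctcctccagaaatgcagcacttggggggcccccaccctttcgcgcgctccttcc
Slc6a11: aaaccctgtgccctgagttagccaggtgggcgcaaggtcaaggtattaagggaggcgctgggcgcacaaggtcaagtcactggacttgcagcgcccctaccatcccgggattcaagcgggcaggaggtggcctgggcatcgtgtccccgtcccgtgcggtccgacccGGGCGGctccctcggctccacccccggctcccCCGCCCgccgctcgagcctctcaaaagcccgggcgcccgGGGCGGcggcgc
Slc6a13: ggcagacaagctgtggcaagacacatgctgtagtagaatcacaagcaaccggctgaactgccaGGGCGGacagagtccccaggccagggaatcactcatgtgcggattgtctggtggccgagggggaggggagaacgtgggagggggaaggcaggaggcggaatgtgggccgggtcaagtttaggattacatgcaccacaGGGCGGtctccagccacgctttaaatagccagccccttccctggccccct
The Gad1 window held 1 TATAAA, 141 bases before the start, and 1 GGGCGG. The Gad2 window held 1 CAGATG, 76 bases before the start, and the Slc32a1 window held none of the 6 motifs. Slc6a11 had 3 matches of GGGCGG and the first Slc6a13 window had 2. Among 32851 mouse windows of the same length, 4.84% held TAATTA, 7.17% CAATTA, 14.4% CAGATG, 13.001% CAGCTG, 12.4% TATAAA and 32.7% GGGCGG. The Slc6a11 window held 25 CG pairs and the first Slc6a13 window 9, against a median of 6 over all windows. Abat had no window in the table used.

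A total of 27742 barcodes was deposited, 6107 to 7279 in a library, and 17623 cells remained after filtering (2973 to 5710 in a library), with a median of 11497 to 11837.5 unique molecular identifiers (UMIs, tags that count captured RNA molecules). The matrix headers named one version of the counting software for both libraries of replicate 1 and an older one for both of replicate 2, so the replicate number is also a processing batch, and values within each replicate are given beside the genotype comparisons. Mitochondrial counts were over the limit of 10% in 9.38% and 12.3% of barcodes in replicate 1 and in 44.0% and 37.8% in replicate 2 (control and mutant). From 13 to 29 kept cells of a library had a barcode that also occurred in another library. Chd8 was counted at 61.7, 89.8, 68.7 and 94.9 CPM (counts scaled to a library total of 1000000 UMIs) in control replicates 1 and 2 and mutant replicates 1 and 2. Chd8 was thus not lower in the mutant library of either replicate, and these RNA counts alone did not bear out the labels. The counts come from the 3′ ends of transcripts and not from the deleted exons. Whether the deleted copy still gave counted transcripts was not tested. For the protein, the study reported by immunoblot less CHD8 in tdTomato-positive cells sorted from mutant than from control embryos. Those cells came from other animals at an earlier age. Clusters were named by marker lists that held none of the members, and each name below stands for cells like that type. The 32 clusters gave 16 names, 13 of them with at least 20 cells in every library, and left 3 clusters unnamed. The oligodendrocytes here also carried markers of committed precursors (Bcas1, Enpp6 and Gpr17 among their leading genes). Levels are CPM of the counts summed over all cells of a type in a library. Wherever 4 values are given they are in the order control replicate 1, control replicate 2, mutant replicate 1, mutant replicate 2.

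The 3 genes for making and packing GABA were highest in inhibitory neurons and next in their dividing precursors, and no other type reached the range of either. Of their UMIs over all kept cells, 70.5% for Gad1, 68.6% for Gad2 and 74.4% for Slc32a1 came from the 3027 inhibitory neurons, 17.2% of the cells. Gad1 was at 344, 208, 339 and 188 CPM in inhibitory neurons. In the dividing inhibitory precursors it was at 102, 36.6, 103 and 39.8 CPM, which does not overlap the range of the neurons. The values of replicate 2 were the low ones in both types.

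**Figure D1:**
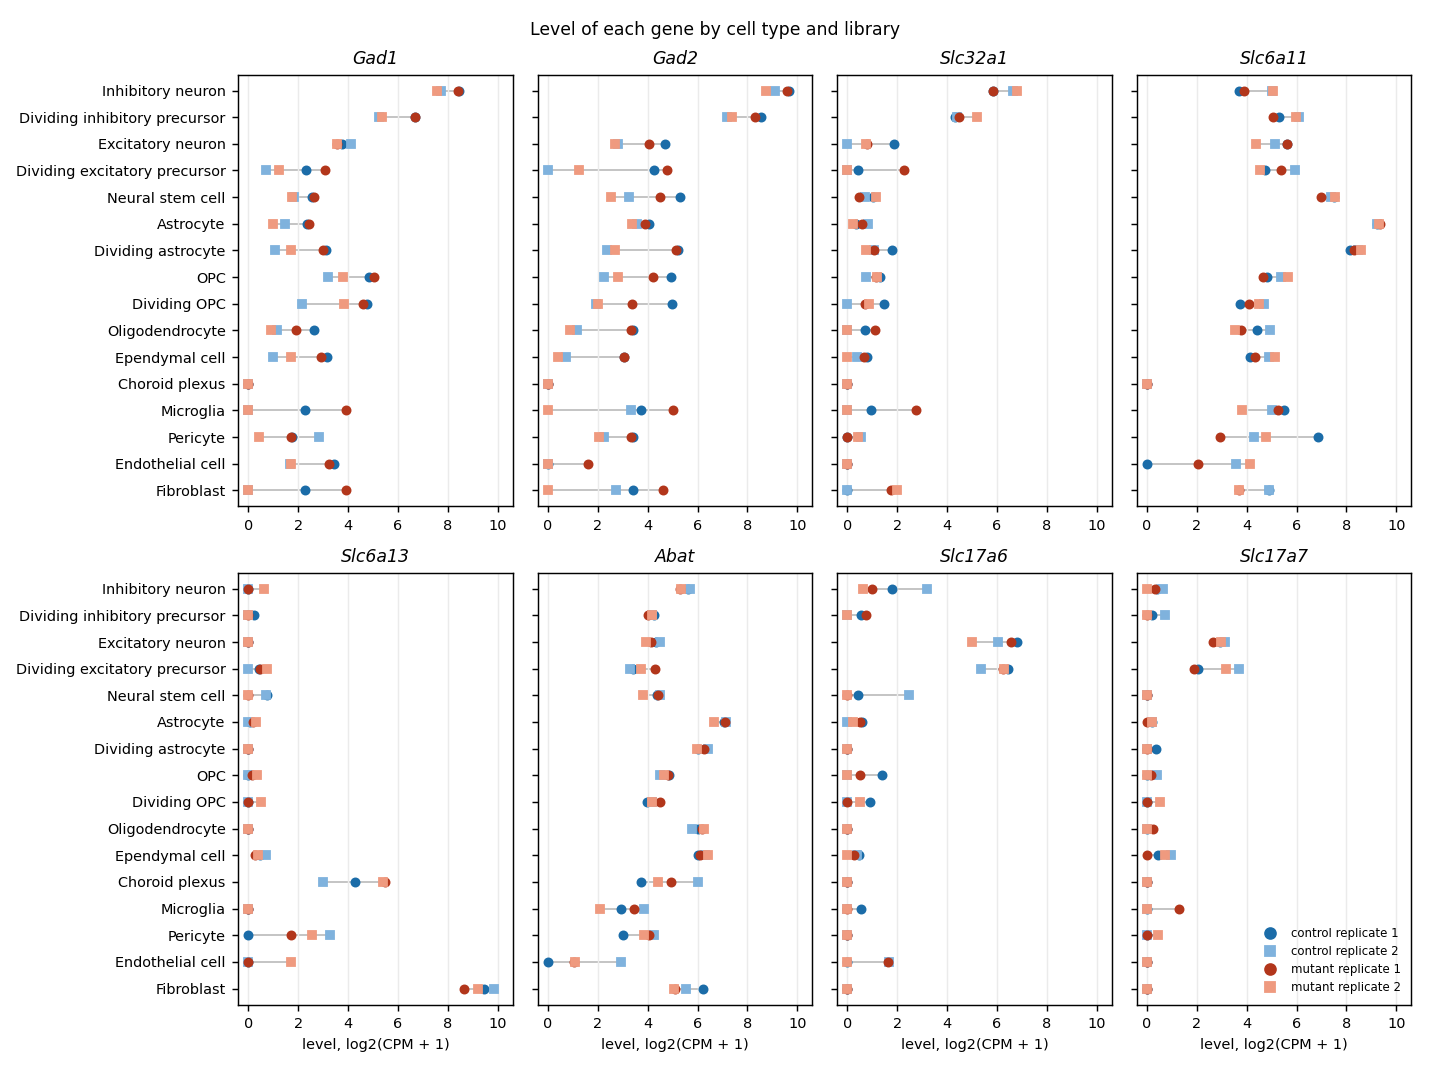
Level of each of the 8 genes by cell type, as log2(CPM + 1), with 1 point per library (dark for replicate 1, light for replicate 2, blue for control, red for mutant) and a grey line over the range. Gad1, Gad2 and Slc32a1 stand apart in inhibitory neurons and their dividing precursors, Slc6a13 in fibroblasts (400 to 915 CPM), and Slc17a6 and Slc17a7 in both excitatory types.

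Gad2 was at 813, 546, 774 and 422 CPM in inhibitory neurons and at 368, 144, 318 and 164 CPM in the dividing precursors. For Slc32a1 the levels were 55.9, 99.8, 56.6 and 112 CPM in the neurons and 18.9, 20.3, 21.4 and 35.4 CPM in the dividing cells. VGAT thus ran opposite to both decarboxylases between the replicates, with replicate 2 above replicate 1 by 1.78-fold in control and 1.98-fold in mutant neurons, while Gad1 had ratios of 0.604 and 0.555 and Gad2 of 0.672 and 0.545. The span of Slc32a1 outside annotated exons is 2185 bases, against 41304 for Gad1 and 65794 for Gad2. The part of the software version in these ratios was not tested.

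From the dividing precursors to the neurons, Gad1 was higher by 3.36-, 5.68-, 3.31- and 4.73-fold, and Gad2 by 2.21-, 3.78-, 2.43- and 2.58-fold. Slc32a1 was higher by 2.96-, 4.93-, 2.65- and 3.16-fold. Abat, the degrading enzyme, was also higher in the neurons of every library, at 48.5, 50.5, 38.8 and 39.7 CPM against 15.3 to 18.3 CPM, whereas Slc6a11 was lower in every library (11.8, 31.1, 13.7 and 32.4 CPM against 38.7, 66.6, 32.2 and 62.0 CPM). Over 9817 genes of at least 10 CPM in either type, 35.4% were higher and 35.2% lower in all 4 libraries, so that the direction itself was common among genes. Both types are clusters of the same cells, and the difference is a description with no test.

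Within the inhibitory neurons the GABA genes varied from cluster to cluster. Cluster 23 (197 cells) carried the marker list of medial ganglionic eminence interneurons, cluster 4 (1131 cells) and cluster 20 (333 cells) that of olfactory bulb interneurons, and cluster 19 (384 cells) was led by Bcl11b. By the methods of the study, the olfactory bulb was not part of the tissue taken. The name of that list thus stands for markers and not for a place. Since the clusters drew unlike numbers from the replicates, they were compared within a library, where they had at least 20 cells. Gad1 was highest in cluster 23 in control replicate 1 (447 CPM, against 414 in cluster 4, 286 in cluster 5 and 271 in cluster 19) and in mutant replicate 1 (459 CPM, against 415, 271 and 270). Gad2 was highest in cluster 4 in the same libraries (883 and 891 CPM), while cluster 23 had 630 and 430 CPM. In control replicate 2 Gad1 was highest in cluster 4 (293 CPM) with cluster 23 next (252 CPM), and Gad2 was highest in cluster 20 (655 CPM) and lowest in cluster 23 (207 CPM). Relative to the other clusters, cluster 23 thus had more Gad1 than Gad2 in each of these 3 libraries. Slc32a1 was highest in cluster 23 in all 3, at 67.3, 162 and 91.8 CPM in control replicates 1 and 2 and mutant replicate 1. The other clusters had 51.6 to 58.1 CPM in control replicate 1 and 50.9 to 57.9 CPM in mutant replicate 1. In control replicate 2, where cluster 23 had 21 cells, all inhibitory neurons together had 99.8 CPM. Cluster 20 held 0, 148, 2 and 183 cells and so came almost wholly from replicate 2, whereas cluster 4 held 552, 36, 524 and 19, and their difference cannot be told apart from that between the replicates. Abat was highest in cluster 23 and lowest in cluster 5 in replicate 1 of both genotypes (79.3 and 34.5 CPM in control, 51.5 and 30.1 CPM in mutant cells), but not in control replicate 2 (61.6 and 55.05 CPM). Slc17a6, which packs glutamate, was at 29.9, 78.4 and 6.72 CPM in cluster 23 in control replicates 1 and 2 and mutant replicate 1. It was at most 0.970 CPM in a library of any of the other 4 clusters. Over all inhibitory neurons of the same 3 libraries only 6, 3 and 6 cells had a UMI of Slc17a6, so that these levels rest on few cells.

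**Figure D2:**
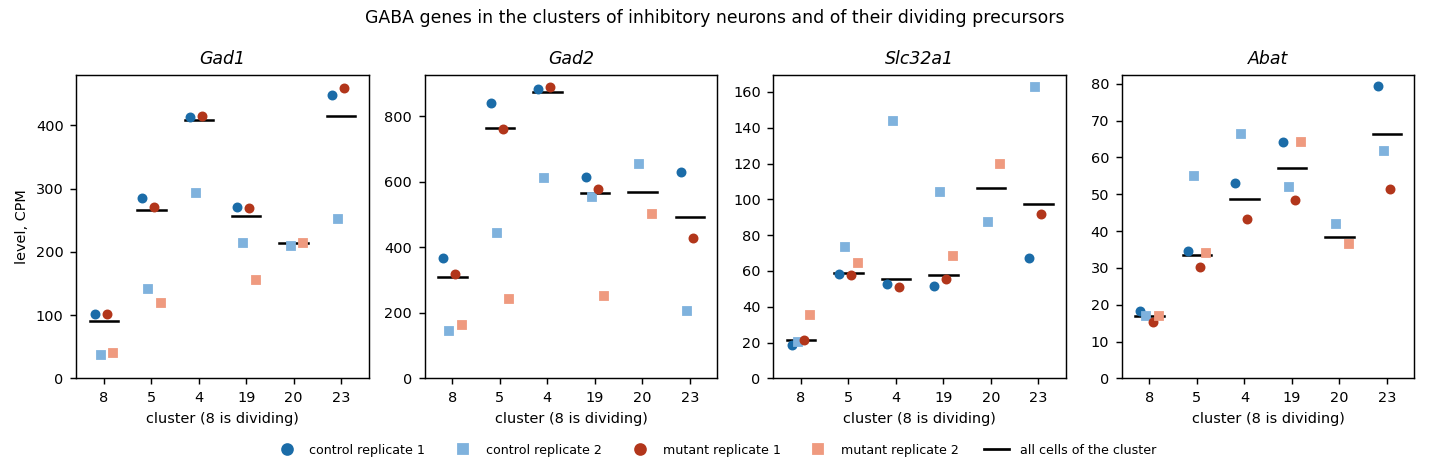
Level in CPM of Gad1, Gad2, Slc32a1 and Abat in the dividing inhibitory precursors (cluster 8) and the 5 clusters of inhibitory neurons, with 1 point per library that has at least 20 cells and a black line for all cells of the cluster. In both libraries of replicate 1 cluster 23 lies above cluster 4 for Gad1 (447 and 459 CPM against 414 and 415) and below it for Gad2 (630 and 430 CPM against 883 and 891).

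When each cell was thinned to 2000 UMIs, Gad1 was found in 48.6%, 33.0%, 48.6% and 32.7% of inhibitory neurons and Gad2 in 74.2%, 59.3%, 73.9% and 53.8%. Slc32a1 was found in 11.2%, 17.8%, 10.8% and 21.1% of the same cells. In ependymal cells, which line the ventricles and make no GABA by this route, the share with Gad2 was 1.58%, 0.0810%, 0.965% and 0.0680%. Median depths before thinning were 5361 to 6730.5 UMIs in inhibitory neurons and 15141 to 20860 in ependymal cells. Without thinning, at least 1 of Gad1 and Gad2 was found in 97.2%, 93.5%, 97.9% and 92.4% of inhibitory neurons, and both in 74.1%, 51.0%, 76.8% and 54.0%. Gad1, Gad2 and Slc32a1 together were found in 24.3%, 24.8%, 26.1% and 25.7%.

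The decarboxylases were also counted in oligodendrocyte progenitor cells (OPCs), and there in another proportion. Gad1 was at 27.5, 8.22, 31.7 and 12.8 CPM in 2434 OPCs and Gad2 at 30.003, 3.77, 17.5 and 6.03 CPM. Gad1 made up 47.9%, 68.6%, 64.4% and 68.1% of the UMIs of both genes in OPCs, against 29.7%, 27.6%, 30.5% and 30.9% in inhibitory neurons. The exact 95% intervals, which cover counting error only, did not overlap between the types in any library (lowest bounds in OPCs of 42.5%, 50.7%, 59.8% and 56.0%, highest bounds in inhibitory neurons of 30.6%, 30.1%, 31.4% and 33.7%). Dividing OPCs had Gad1 shares of 46.0%, 55.6%, 71.4% and 81.6%, the second of them from 9 UMIs in all. Slc32a1 stayed at 0.685 to 1.48 CPM in OPCs. The 7 inhibitory neuron markers summed to 121, 21.2, 81.5 and 41.2 CPM in OPCs and to 3288 to 3462 CPM in inhibitory neurons, and none of the 7 was at 0 throughout in OPCs. Their part in the proportion was not tested. Astrocytes had Gad1 shares of 21.1%, 13.9%, 23.9% and 9.77%, on the other side of the neurons. From OPCs to oligodendrocytes Gad1, Gad2 and Slc6a11 were lower in each library, as were 45.3% of 10027 genes, and Abat was higher in every library, as were 22.4%.

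**Figure D3:**
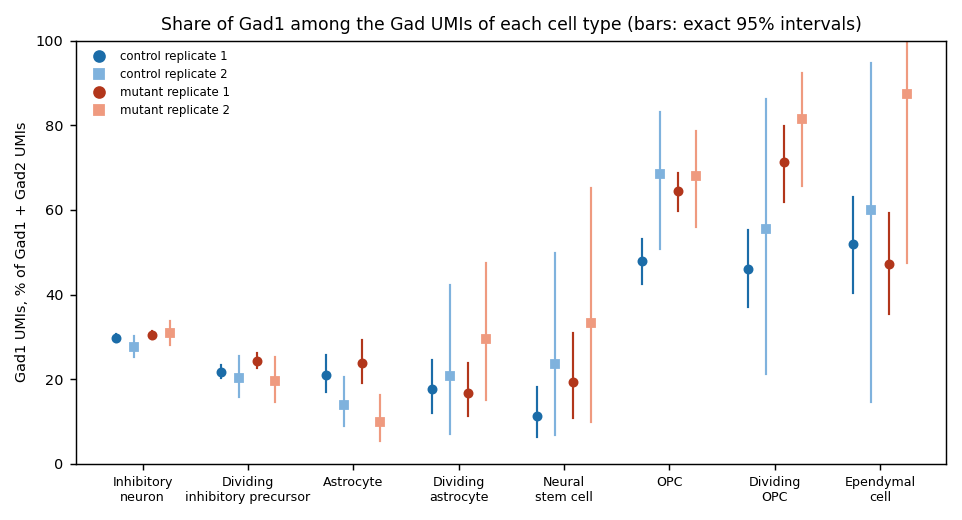
Gad1 as a percentage of the Gad1 and Gad2 UMIs of a cell type, with 1 point per library and exact 95% intervals for counting error. OPCs lie between 47.9% and 68.6% and inhibitory neurons between 27.6% and 30.9%, and in ependymal cells the intervals of replicate 2 span most of the axis.

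Slc6a11, the GABA carrier GAT3, marked the astrocyte lineage and was, in its main type, the member with the most even levels between replicates (replicate 2 over 1 at 0.989 in control and 0.968 in mutant). It was at 600, 593, 643 and 622 CPM in astrocytes. Dividing astrocytes had 280, 353, 316 and 380 CPM and neural stem cells 180, 167, 126 and 184 CPM, so that the 3 ranges did not overlap. All other tested types had means of 18.2 to 49.9 CPM. Neighbours within that lower group overlapped, and pericytes stood at 115 CPM in control replicate 1 (35 cells) against 6.72 to 26.5 CPM in the other libraries. After thinning Slc6a11 was found in 57.9%, 58.2%, 62.0% and 56.7% of astrocytes and in 1.86%, 5.93%, 2.15% and 5.45% of inhibitory neurons.

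Abat was broader than the carriers. It was at 132, 140, 137 and 101 CPM in astrocytes, above every other tested type. Ependymal cells had 64.5, 77.6, 68.2 and 83.5 CPM, dividing astrocytes 63.4, 83.8, 75.4 and 62.3 CPM and oligodendrocytes 62.9, 53.8, 72.4 and 74.9 CPM, and these 3 overlapped. Inhibitory neurons followed at 38.8 to 50.5 CPM, below the oligodendrocytes and above the OPCs (21.2 to 27.7 CPM) in every library, while excitatory neurons had 14.2 to 21.6 CPM. Between dividing and other astrocytes both Abat and Slc6a11 were higher in every library, by 1.62- to 2.08-fold and 1.64- to 2.14-fold, as were 35.8% of 9772 genes. Between neural stem cells and astrocytes Abat was higher by 6.52- to 7.64-fold and Slc6a11 by 3.33- to 5.12-fold, as were 31.0% of 10084 genes in direction.

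Slc6a13, the carrier GAT2, was nearly confined to 1 small type in these cells. Of its 975 UMIs, 900 (92.3%) came from 101 fibroblasts, which made up 0.573% of the cells and were led by Ptgds, Col1a1 and Dcn. It was at 702, 915, 400 and 591 CPM there, in 32, 16, 25 and 28 cells. Choroid plexus cells, of which there were 25, had 7.01 to 44.0 CPM. Pericytes had 0 to 8.56 CPM and each of the other 12 tested types had a mean of at most 0.383 CPM, with no UMI counted in excitatory neurons, dividing astrocytes, microglia and oligodendrocytes. Slc6a12, its neighbour on chromosome 6, was at 9.51, 5.68, 7.06 and 17.7 CPM in fibroblasts.

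Both mutant libraries had less Slc6a13 in fibroblasts than both control libraries. How common such a separation was over all genes in fibroblasts was not counted. The share of fibroblasts with at least 1 UMI was 84.4% (27 cells), 93.8% (15), 40.0% (10) and 57.1% (16) without thinning. Mutant over control was 0.570 within replicate 1 (95% counting interval 0.472 to 0.685) and 0.645 within replicate 2 (0.522 to 0.799). Fibroblasts fell short of 20 cells in control replicate 2, so the test of these counts was added after the data were seen, with a minimum of 10 cells. It gave a log2 change of -0.69 with an SE of 0.38 (edgeR, unadjusted p = 0.11, adjusted p = 0.999), and with the replicate as a block -0.70 with an SE of 0.28 (unadjusted p = 0.0162, adjusted p = 0.2675). By these fits 0% and 2.37% of 6409 genes were called. The 6 fibroblast markers summed to 10688, 17060, 9316 and 9561 CPM, lower in the mutant libraries too, and 3 of the 6 had both mutant libraries below both controls. The 10 astrocyte markers summed to 1522, 1484, 2124 and 1471 CPM in the same cells. The part of either in the difference was not tested, nor was it tested whether Chd8 had been recombined in these fibroblasts.

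Of the vesicular glutamate transporters, Slc17a6 gave 1552 UMIs over all kept cells and Slc17a7 only 137. Slc17a6 was at 109, 64.8, 92.6 and 31.1 CPM in excitatory neurons and at 85.2, 39.8, 74.8 and 76.8 CPM in dividing excitatory precursors. These ranges overlapped, and both lay above the inhibitory neurons (0.559 to 8.22 CPM). Slc17a7 was at 6.57, 7.78, 5.32 and 6.76 CPM in excitatory neurons and at 3.19, 11.99, 2.70 and 8.08 CPM in the dividing precursors. From the dividing precursors to the neurons Slc17a6 was higher in 3 libraries and lower in mutant replicate 2, Slc17a7 was higher in both libraries of replicate 1 and lower in both of replicate 2, and Gad1 was higher in all 4, as were 28.2% of 10082 genes.

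Excitatory neurons consisted of 2 clusters that differed in Slc17a6. Cluster 21 (289 cells, led by Rbfox1 and Unc5d) had 172 and 165 CPM of Slc17a6 in control and mutant replicate 1, and cluster 12 (668 cells, led by Neurod1 and Calb2, with Prox1) had 61.3 and 70.7 CPM in the same libraries. For Slc17a7 the order was not shared, with 3.95 against 8.57 CPM in control and 6.10 against 5.09 CPM in mutant cells. Cluster 21 made up 45.3%, 9.40%, 27.7% and 7.25% of the excitatory neurons, from 189, 11, 79 and 10 cells. Thinned to 2000 UMIs, 18.01%, 11.4%, 15.1% and 5.47% of excitatory neurons had Slc17a6 and 1.57%, 1.5003%, 0.970% and 1.21% had Slc17a7. In inhibitory neurons the same shares were 0.117% to 0.534% for Slc17a6 and 0% to 0.296% for Slc17a7, at median depths of 5361 to 6730.5 UMIs against 9384 to 10386 in excitatory neurons. Without thinning, 2.88%, 0.855%, 3.16% and 1.45% of excitatory neurons had both transporters.

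Cells with transcripts of both transmitter systems were also counted. Among excitatory neurons with a UMI of Slc17a6 or Slc17a7, 39 of 212, 5 of 52, 19 of 129 and 2 of 36 also had a UMI of Gad1 or Gad2 (18.4%, 9.62%, 14.7% and 5.56%). Over all excitatory neurons the share with Gad1 or Gad2 was 16.5%, 15.4%, 12.6% and 10.1%, and in ependymal cells it was 16.5%, 2.59%, 9.56% and 4.21%. Gad1 and Gad2 in excitatory neurons were at 12.7, 16.4, 10.64 and 10.8 CPM and at 25.1, 6.05, 15.6 and 5.41 CPM. Ependymal cells should lack these genes but were sequenced more deeply. Thinned to 2000 UMIs, Gad1 was found in 2.74%, 3.54%, 2.87% and 1.77% of excitatory neurons and in 1.43%, 0.143%, 1.01% and 0.365% of ependymal cells. For Gad2 these shares were 3.66%, 0.528%, 2.45% and 0.559% against 1.58%, 0.0810%, 0.965% and 0.0680%. Both genes were thus found more often in excitatory neurons than in ependymal cells of the same library. This did not hold against every other type. Gad2 was found in 6.48%, 1.79%, 3.14% and 0.645% of neural stem cells, above the excitatory neurons in every library. Gad1 was found in 5.78%, 1.96%, 6.42% and 2.98% of OPCs, above them in all but control replicate 2. The Gad2 shares of excitatory neurons in replicate 2 rest on 3 control and 5 mutant cells. The 7 inhibitory markers summed to 64.3, 23.3, 57.8 and 22.99 CPM in excitatory neurons, and their part in these shares was not tested.

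Across the 13 tested types, Gad2 and Slc32a1 had the most alike levels of the members (Pearson r = 0.976 of log2(CPM + 1)), Gad1 had r = 0.891 with Gad2 and 0.912 with Slc32a1, Slc17a6 had r = 0.960 with Slc17a7, and Slc6a11 had r = 0.424 with Abat. The points are means over the same 4 libraries. The genes most alike to Gad1 were Gm14204, Dlx6os1 and Adarb2 (r = 0.939, 0.933 and 0.923), and those most alike to Gad2 were Dlx5, Sp9 and Gm14204 (0.977, 0.975 and 0.970). Dlx6os1, Dlx5 and Gm14204 were nearest to Slc32a1 (0.987, 0.985 and 0.984). Dlx5 and Sp9 encode transcription factors of inhibitory neurons, and they and Dlx6os1 were among the markers that named this type, as Acsbg1 was for astrocytes. Acsbg1, Bmpr1b and Slc7a11 came closest to Slc6a11 (0.984, 0.960 and 0.954). For Abat the closest genes had lower values, Slc30a9, Npy and Fgfr2 (0.861, 0.854 and 0.839). Slc17a6 and Slc17a7 shared 2 of their 3, Tbr1 (0.977 and 0.980) and Sstr2 (0.981 and 0.968), with Nhlh2 (0.968) for the first and Tac2 (0.965) for the second. Tbr1 was among the markers that named excitatory neurons, and the highest mean of Slc17a7 was only 6.61 CPM. Slc6a13 was nearest to Mustn1, Carmn and Map3k7cl (0.990, 0.972 and 0.972), but among these 13 types, which leave out the fibroblasts, its highest mean was 3.92 CPM.

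The comparison of mutant with control cells asks which genes differ after the heterozygous Chd8 mutation. For the members in their main types no difference passed the test. In inhibitory neurons the ranges of the genotypes overlapped for Gad1, Gad2 and Slc32a1, and the replicates of a genotype lay farther apart than the genotypes within a replicate. The log2 change was -0.06 with an SE of 0.47 for Gad1, -0.18 with an SE of 0.45 for Gad2 and 0.10 with an SE of 0.47 for Slc32a1, each with an adjusted p of 1 (edgeR quasi-likelihood test). Within replicates 1 and 2, mutant over control was 0.986 and 0.906 for Gad1, 0.952 and 0.773 for Gad2 and 1.01 and 1.12 for Slc32a1. The counting interval for Gad2 ran from 0.921 to 0.984 in replicate 1 and from 0.701 to 0.852 in replicate 2. In the clusters with at least 20 cells in both libraries of replicate 2, Gad2 was at 443 against 242 CPM in cluster 5, 554 against 252 in cluster 19 and 655 against 503 in cluster 20, control before mutant. In replicate 1 it was at 883 against 891 CPM in cluster 4, 840 against 760 in cluster 5, 614 against 578 in cluster 19 and 630 against 430 in cluster 23.

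**Figure D4:**
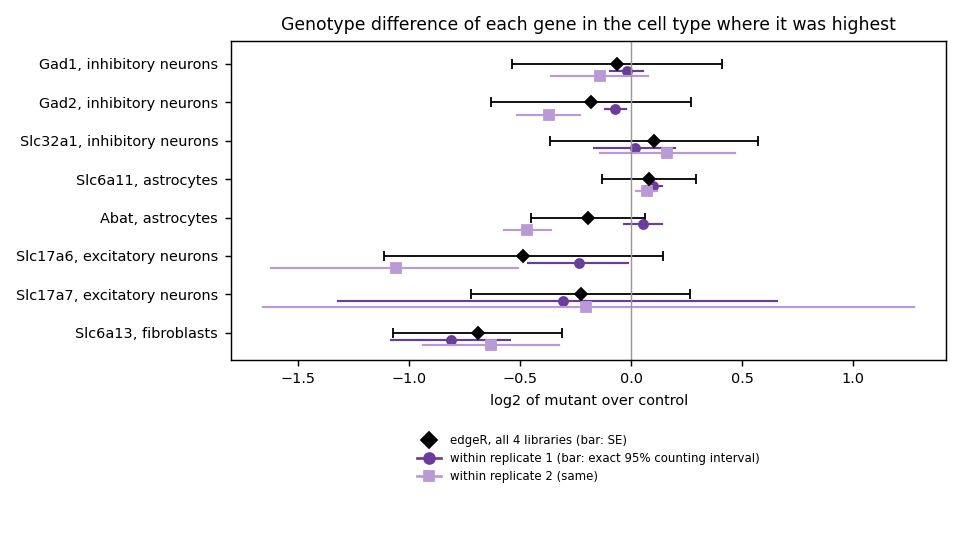
Log2 of mutant over control for each gene in the cell type where its mean was highest, with the edgeR estimate over all 4 libraries and its SE in black and the ratio within each replicate with its exact 95% counting interval in purple. Gad2, Slc17a6, Slc17a7, Gad1 and Slc6a13 lie below 0 in both replicates, and Abat below 0 in replicate 2 alone.

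Among excitatory neurons Slc17a6 had a log2 change of -0.49 with an SE of 0.63 and Slc17a7 of -0.23 with an SE of 0.49 (adjusted p = 1 for both). Mutant over control was 0.849 and 0.480 for Slc17a6 within replicates 1 and 2, with counting intervals of 0.726 to 0.991 and 0.325 to 0.702. With the replicate as a block the change of Slc17a6 was -0.53 with an SE of 0.22 (unadjusted p = 0.0294, adjusted p = 1). Within cluster 12 alone Slc17a6 was at 61.3, 54.3, 70.7 and 33.2 CPM, so that in replicate 1 the mutant library was the higher one there, and within cluster 21 it was at 172 and 165 CPM in control and mutant replicate 1. In the dividing precursors the log2 change was 0.28 with an SE of 0.41. For Slc17a7, with 27, 9, 15 and 10 UMIs in excitatory neurons, no difference was detectable at this depth, the ratios of 0.809 and 0.869 having intervals of 0.400 to 1.58 and 0.317 to 2.42.

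In astrocytes Slc6a11 had a log2 change of 0.08 with an SE of 0.21 and Abat of -0.19 with an SE of 0.26 (adjusted p = 1 for both). Both mutant libraries were above both controls for Slc6a11, as for 885 of the 14862 genes tested in astrocytes, and the ranges of Abat overlapped. The thinned share of astrocytes with Slc6a11 was 57.9%, 58.2%, 62.0% and 56.7%, so that it was lowest in mutant replicate 2. Abat was low in mutant replicate 2 alone, where thinned cells had it in 16.5% of cases against 22.1%, 22.7% and 22.4%. Its levels in inhibitory neurons (48.5, 50.5, 38.8 and 39.7 CPM) did not overlap between the genotypes. Both mutant libraries were below both controls, as for 776 of the 13047 genes tested in that type. Mutant over control was 0.799 and 0.786, and the fit gave a log2 change of -0.34 with an SE of 0.26 (adjusted p = 1).

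Over the 13 types, 53 tests of members could be made, and 0 were called at an adjusted p under 0.05. Slc6a13 entered none, and Slc32a1 and Slc17a7 entered 2 each. In none of the 13 types was any gene called (0% of 6851 to 14862 genes), and DESeq2 called 0 or 1 in a type. From 2 to 70 genes in a type had an unadjusted p under 0.05. That is far fewer than this threshold gives when nothing differs, so the fit without a block was conservative. The absence of calls therefore does not show that the genotypes were alike. With the replicate as a block the same count ran from 240 of 11960 genes (dividing inhibitory precursors) to 604 of 10702 (oligodendrocytes). Only in oligodendrocytes was it above what this threshold gives when nothing differs. With a replicate block 0% of genes were called in inhibitory neurons, 0.00876% in excitatory neurons, 0.0135% in astrocytes, 0.0522% in dividing OPCs, 0.252% in oligodendrocytes and 0.613% in microglia, with 0.00715% in ependymal cells, 0.00753% in OPCs, 0.0176% in neural stem cells and 0% in the other types, and again 0 of the 53 member tests. Both mutant libraries lay above both controls in 4 of the 53 (7.55%) and below in 6 (11.3%), against 8.12% and 7.6% over all genes and types, so the members were near the background. Of the 2 tests with the lowest p without the block, Slc6a11 in oligodendrocytes had an unadjusted p of 0.0493 and Slc17a6 in inhibitory neurons of 0.0525, both with an adjusted p of 1. The second rests on 23, 14, 8 and 1 UMIs. Slc17a6 passed the filter there through its control libraries alone (2.43 and 8.22 CPM, against 0.961 and 0.559 CPM in mutant libraries). Its direction thus follows from its entry and is no support for a difference, and this test is among the 6 below. The lowest p with the block was that of Gad2 in dividing OPCs (log2 change -1.26, SE 0.37, unadjusted p = 0.000766, adjusted p = 0.284). It rests on replicate 1, with 68 UMIs in control and 30 in mutant cells, against 4 and 7 in replicate 2, and the 7 inhibitory markers in dividing OPCs summed to 132, 13.1, 63.0 and 20.4 CPM. Their part in the difference was not tested.

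For the shares of cells no test could pass, since with 2 libraries in each group the smallest p is 0.33. The mean difference in thinned inhibitory neurons, mutant minus control, was -0.118 percentage points for Gad1 (exact permutation p = 1), -2.88 for Gad2 (p = 0.667, exact permutation) and 1.46 for Slc32a1 (p = 1, exact permutation). For Slc17a6 in excitatory neurons the difference was -4.44 points (exact permutation p = 0.667), with -2.93 and -5.95 in replicates 1 and 2. For Slc17a7 both mutant libraries (0.970% and 1.21%) were below both controls (1.57% and 1.5003%), by -0.447 points (exact permutation p = 0.33, the smallest possible). Without thinning the genotypes overlapped, at 5.52% and 6.84% in control and 4.56% and 6.52% in mutant libraries. These shares rest on 23, 8, 13 and 9 cells with a UMI of Slc17a7. The SD over the 2 libraries of a genotype was 11.01 and 11.3 points for Gad1 in control and mutant, 10.56 and 14.2 for Gad2 and 4.66 and 6.79 for Slc17a6.

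Of 23 other transmitter genes, 20 entered at least 1 of 215 tests over the 13 types, and 0 were called without the block. With the replicate block 2 were called, both in oligodendrocytes, where 0.252% of all genes were, and both lower in mutant cells. They were Slc1a2 and Slc1a3, the glutamate carriers GLT-1 and GLAST known from astrocytes. Slc1a2 was at 72.3, 122, 26.5 and 37.5 CPM in oligodendrocytes (log2 change -1.499, SE 0.21, adjusted p = 1.36e-07 with the block, 1 without it), and Slc1a3 at 124, 149, 41.4 and 28.7 CPM (log2 change -1.81, SE 0.20, adjusted p = 8.74e-12 with the block, 1 without it). Slc6a11 moved with them, at 20.4, 29.4, 12.7 and 10.5 CPM, with mutant over control at 0.624 and 0.356. The 10 astrocyte markers in the oligodendrocytes summed to 115, 141, 51.4 and 76.7 CPM, against 4191 to 4911 CPM in astrocytes, none was at 0 in every library, and 6 of 10 had both mutant libraries below both controls. Their part in these differences was not tested. In the added fits for fibroblasts, 11 genes of the list were tested, with 0 called without the block and 3 called with it, against 0% and 2.37% of all genes there. Slc7a11, the cystine and glutamate exchanger, was lower at 1200.0, 1779, 558 and 564 CPM (log2 change -1.35, SE 0.28, adjusted p = 0.002249 with the block). Slc38a1 and Slc38a2, carriers of glutamine, were higher in mutant cells, Slc38a1 at 32.3, 17.1, 134 and 67.9 CPM and Slc38a2 at 706, 250.1, 1868 and 910 CPM (log2 changes 1.89 and 1.62, adjusted p = 0.004263 and 0.0002734 with the block). Without the block each of the 3 had an adjusted p of 0.9991. Both mutant libraries lay above both controls in 8 of the 215 tests (3.72%) and below in 37 (17.2%), against 8.12% and 7.6% over all genes and types. The tests below were most frequent in pericytes and oligodendrocytes. Over all genes tested there, 1136 of 10539 and 1115 of 10702 lay below. Tests within a type share its 4 libraries and are not independent.

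**Figure D5:**
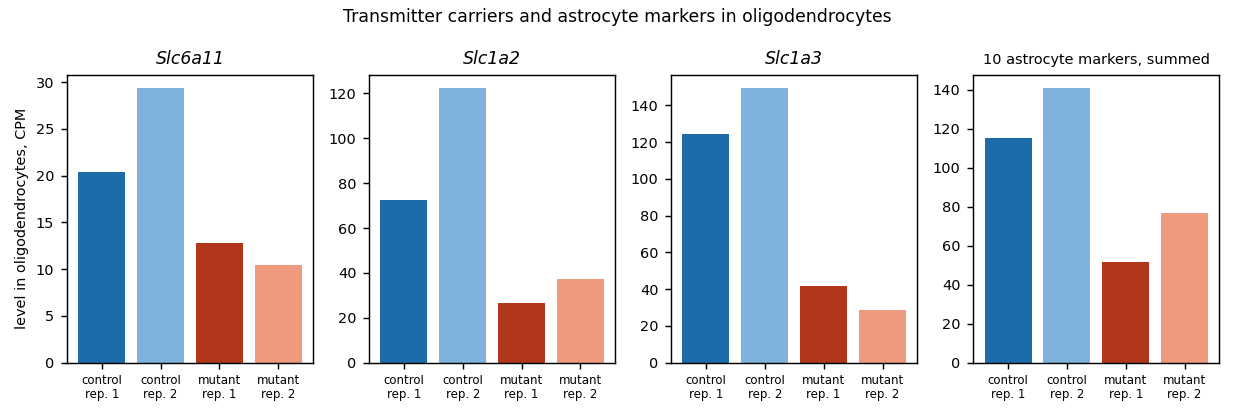
Level in CPM, 1 bar per library, of Slc6a11, Slc1a2, Slc1a3 and the sum of 10 astrocyte markers in oligodendrocytes. All 4 quantities are lower in both mutant libraries, the summed markers at 51.4 and 76.7 CPM against 115 and 141 CPM.

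Of the list by level, Slc17a8, which encodes VGLUT3, was found in a type that the other vesicular transporters left out. It was at 61.3, 135, 51.4 and 134 CPM in ependymal cells, and at most 0.865 CPM in a library of any other tested type. Slc1a2 (2728 to 3631 CPM), Slc1a3 (3398 to 4664 CPM) and Glul, the glutamine synthetase (746 to 1059 CPM), were highest in astrocytes. Gad1os was at 13.7, 0, 15.7 and 0.559 CPM in inhibitory neurons and at 14.8, 2.25, 14.5 and 0.971 CPM in ependymal cells, so that it was low in replicate 2 in both.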

How the data were processed

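UMI counts of single cells (10x Genomics 3′ kit v3.1) were deposited by the authors as 1 matrix of counts per library, aligned to mm10. The headers named Cell Ranger 7.0.0 for replicate 1 and 5.0.1 for replicate 2, the methods of the study 7.0.0, and the submitters' processing notes 3.0. Genotype and replicate came from the sample titles. A barcode was kept when it had between 2000 and 40000 UMIs, no fewer than 1000 detected genes and a mitochondrial share up to 10%, and no doublets were removed. They were clustered (scanpy 1.11.5, leidenalg 0.10.2, 2000 variable genes without the members, 30 components, 15 neighbours, resolution 1) and named from marker lists, with 3 clusters of 1121 cells left unnamed. Counts were summed per type and library and compared between genotypes by edgeR 4.0.16 (R 4.3.3, filterByExpr, TMM, quasi-likelihood, prior count of 2, no block), with Benjamini-Hochberg adjustment over all genes of a type. SE is the log2 change divided by the square root of F. Shares were computed for cells thinned to 2000 UMIs, as the exact probability of keeping a UMI, and tested by exact two-sided permutation over the 6 assignments of 4 libraries. Intervals of shares and of ratios of counts are exact (95%) and cover counting error only. The fits and the thinning were tested on simulated data.

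The members, gene lists and tests were chosen with earlier results of these data known. The genes named are the 8 members, the genes of a list of 23 that were called by either fit, members of that list by level (Slc1a2, Slc1a3, Slc17a8 and Glul, with another not reported here), and the 3 genes most alike to each member, among genes of at least 50 CPM in a tested type. Slc6a12 and Gad1os, as neighbours of members, were named after their values were seen. Alternatives were DESeq2 1.42.0, other filters and scalings, a replicate block, each library left out, a mitochondrial limit of 5%, resolution 2, the members kept for clustering, and removal of the 5% of cells with the highest Scrublet scores.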

Additional observations from a re-analysis of the deposited data

Results flagged for a closer look

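For 2 members the genotype difference had opposite directions in different cell types, with both mutant libraries beyond both controls in each. The difference between the types was not tested in either case, and no log2 change below passed the test in its own type.

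Abat had mutant libraries above the controls in dividing excitatory precursors (log2 change 0.69) and oligodendrocytes (0.36), and below them in dividing inhibitory precursors (-0.17), excitatory neurons (-0.39) and inhibitory neurons (-0.34). Slc6a11 had mutant libraries above the controls in astrocytes (log2 change 0.080) and below them in oligodendrocytes (-0.99), where the summed astrocyte markers were lower too. Over all genes and types, 8.12% of tests had both mutant libraries above both controls and 7.6% below.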

How the results depend on the processing

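With 2 pooled libraries a genotype and a conservative main fit, small differences could not be shown. The log2 changes of members stayed uncalled under all 91 alternatives and kept their direction in 83, the exceptions being libraries left out, where the lone library of a genotype is assumed to vary like the others. These gave -0.64 to 0.40 for Gad1, -0.77 to 0.22 for Gad2 and -0.40 to 0.53 for Slc32a1 in inhibitory neurons, -0.46 to 0.0206 for Abat and 0.02 to 0.12 for Slc6a11 in astrocytes, and -1.49 to 0.0870 for Slc17a6 and -0.37 to -0.08 for Slc17a7 in excitatory neurons. Abat turned without mutant replicate 2 (0.0206), as did Slc17a6 (0.0870).

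Same-numbered libraries deviated together (r = 0.604 to 0.893 over genes in the 13 types), but 2 pairs that share a software version cannot decide a pairing. Crossing the pairs only turns the sign of r by construction and adds nothing. With a replicate block the genes called were 42 in microglia, 27 in oligodendrocytes, 6 in dividing OPCs, 2 each in astrocytes and neural stem cells, and 1 each in ependymal cells, excitatory neurons and OPCs, against 0 without it. Without a filter on counts 25 genes were called in microglia, 19 in pericytes, 8 in dividing inhibitory precursors, 8 in oligodendrocytes and 6 in dividing excitatory precursors, and DESeq2 called 1 in microglia and 1 in pericytes. Leaving out libraries gave 0 to 39 in microglia (39 without mutant replicate 1) and 0 in the other 12 types. The cause was not tested.

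The mean level of Slc6a11 in astrocytes moved to 548 CPM with a mitochondrial limit of 5% and to 578 CPM without the highest doublet scores. Slc6a13 in fibroblasts moved to 935 CPM with the 5% limit and Slc17a7 in excitatory neurons to 8.75 CPM at resolution 2.

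The differences in shares of cells (mutant minus control, percentage points) turned in 32 of 126 alternatives. Without thinning they were 2.28 for Gad1, 0.317 for Gad2, 2.83 for Gad1 and Gad2 together, 1.79 for Gad1 and Slc32a1, 1.35 for all 3 genes, 0.437 for Slc17a6 and Slc17a7 together and -1.18 for Slc6a11. With the 5% limit they were 1.67 for Gad1, 0.523 for Gad1 and Gad2, 0.149 for Gad1 and Slc32a1 and -0.660 for Gad2 and Slc32a1, and without the highest doublet scores 0.220 for Gad1. Leaving out a library gave -8.08 to 7.84 for Gad1, -12.9 to 7.17 for Gad2, -3.67 to 6.59 for Slc32a1, -9.43 to 8.89 for Gad1 and Gad2, -11.7 to 6.20 for Gad1 or Gad2, -0.629 to 0.0379 for all 3 genes, -0.461 to 0.139 for Gad1 and Slc32a1, and -1.76 to 1.87 for Gad2 and Slc32a1. It gave -9.24 to 0.363 for Slc17a6, -0.568 to -0.327 for Slc17a7, -9.46 to -0.275 for either and -0.156 to 0.118 for both, and -1.37 to 3.92 for Slc6a11 and -5.88 to 0.0191 for Abat.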
